A study of Saccharomyces cerevisiae with 6 samples.

Results

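The genes described here are 47 yeast genes of DNA replication and of the supply of deoxyribonucleotides, its building blocks, with 3 subunits of the transcription factors that switch many of them on and 3 subunits of cohesin, which holds the copied chromosomes together. They were chosen by name. All 47 were found among the 5650 named genes (6345 features in all) of a 2-colour array, each by 1 probe.

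The study asked which transcripts differ in yeast exposed to ethanol. Every culture was the haploid MATa laboratory strain W303-1A, whose marker alleles are ade2-1, can1-100, trp1-1, ura 3-1, "his3-11, 15" and "leu2-3, 122" in the labels' spelling, grown in YEPD medium (20 g/l glucose) at 30 °C. From 1 parent culture in late exponential phase without ethanol, 3 cultures were started at 0% ethanol and 3 at 6.5% (v/v) ethanol, so that all 6 share strain, medium and inoculum. The sources used here do not give the time in ethanol or the growth state at harvest, and 1 strain and 1 dose were studied. Each array set the total RNA of 1 culture against pooled RNA of the 3 cultures without ethanol.

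Replication starts where the origin recognition complex (ORC) marks the DNA. In G1, Cdc6 and ORC load the ring of Mcm2 to Mcm7 there, and Cdc45 joins the ring when it starts to unwind DNA as a helicase. DNA polymerase alpha with primase lays down the primers, polymerase epsilon extends mainly the leading strand and polymerase delta the lagging strand, held to the DNA by the clamp PCNA, which the RFC complex loads. In budding yeast many of these genes are transcribed in a burst in late G1, driven by SBF (Swi4 with Swi6) and MBF (Mbp1 with Swi6), while CDC6 and the MCM genes peak somewhat earlier. Ribonucleotide reductase makes the deoxyribonucleotides and is raised further by the DNA damage checkpoint.

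Values are deposited log2 ratios, turned so that each is culture over pool. The changes are log2 differences, the mean of the 3 arrays at 6.5% minus the mean of the 3 at 0% ethanol, each with its standard error (SE) from limma with dye orientation as a term. Direction rests on reading the deposited ratios as red over green. No source states this, and were they green over red, all signs would be opposite. A gene is called, and said to rise or fall, at a Benjamini-Hochberg adjusted p below 0.05 over all 6345 features. Because ratios to a pool hold no level, no gene's abundance can be compared with another's. In bulk RNA, fewer cells in the phase that expresses a gene and less of its RNA per cell cannot be told apart.

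The array of culture 1 in each group was dye-swapped and stood apart. Between 0% culture 1 and 0% cultures 2 and 3 the turned ratios correlated at r = −0.38 and −0.44 across probes, and between 6.5% culture 1 and 6.5% cultures 2 and 3 at −0.063 and −0.096, against 0.67 and 0.85 between cultures 2 and 3. The dye term was called for 34% of all features and for 22 of the 47 genes here. Each group holds 1 swapped array, so a constant dye effect cancels in the change. For the genes that fell, the change is therefore also given within each orientation.

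With ethanol 4 of the 47 transcripts fell and 43 did not pass the test. Those that fell were POL2, RAD27, POL1 and CDC21, which code for the catalytic subunits of polymerases epsilon and alpha, the flap endonuclease of lagging-strand processing and thymidylate synthase. None was called higher by limma. Over all features 18.1% were called, 10.4% lower and 7.69% higher, so the 4 of 47 (8.51%) are near the background share of falls. At an unadjusted p below 0.05, 9 of the 47 were lower and 3 higher, against 18.5% and 16.8% of all features. The median change was −0.19 over the 47 and 0.039 over all features, with quartiles of −0.65 and 0.37 against −0.57 and 0.56. Changes of at least 1 log2 unit, in either direction, were estimated for 5 of the 47 (10.6%) and for 24.3% of all features. The 95% intervals reached a median of 0.68 log2 units to either side. The adjusted threshold asked for more than an interval clear of 0. The uncalled genes with such an interval below 0 were RNR4, RFC4, RFA2, RFA3 and MCM4, at −0.75, −0.89, −0.82, −0.73 and −0.72. Those with it above 0 were RFA1, POL12 and CDC6, at 0.89, 0.64 and 1.53.

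**Figure D1:**
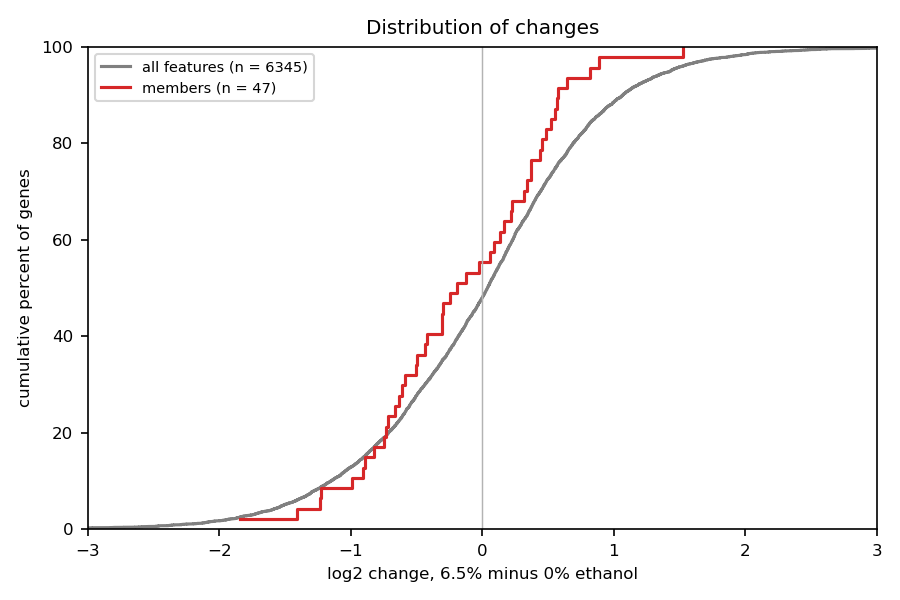
Cumulative percent of genes (y axis) against the log2 change, 6.5% minus 0% ethanol (x axis, cut at 3 units to either side), for the 47 replication and nucleotide genes (red) and all 6345 features (grey). The curve of the 47 is the steeper, with medians of −0.19 and 0.039.

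The calls depended on single arrays, most of all those of 6.5% cultures 2 and 3. Without 6.5% culture 2 or 6.5% culture 3 none of the 47 was called lower, with 6 and 5 lower at an unadjusted p below 0.05, and of all features 2 and 51 were called (0% and 0.426% called lower). Without 0% culture 2 or 3, POL2 and RAD27 were called lower, against 4.48% and 6.98% of all features. Without either array of culture 1, 3 were called lower, POL2, RAD27 and POL1, and 1 higher, CDC6, against 10.8% and 8.9% of all features. Leaving out either one gave identical values, so these fits count as 1. With the replicate number as a block, 2 of the 47 were called lower, POL2 and RAD27 (5.63% of all features). The deposited ratios also carry a trend along the probe number, and with it removed the same 2 genes were called lower (7.31% of all features) and none higher (5.91%), with 10 lower and 2 higher at an unadjusted p below 0.05. The shares of all features at that unadjusted p were not counted in these fits, so their unadjusted counts have no background beside them.

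POL2, the catalytic subunit of DNA polymerase epsilon, fell by the most. Its log2 ratios were −0.22, 1.97 and 1.30 on the 0% arrays and −1.74, −0.39 and −0.34 on the 6.5% arrays, in the order of cultures 1 to 3. The groups did not overlap, as for 14% of all features with the 6.5% arrays below, but 0% cultures 2 and 3 lay well above 0 although the pool holds their own RNA. The dye term of POL2 was called (0.81, adjusted p = 0.0106). The change was −1.84 ± 0.29, or 3.58-fold (95% interval −2.53 to −1.16, adjusted p = 0.0120), with −1.52 on the swapped pair and −2.0 on the unswapped arrays. The 6.5% arrays against the pool alone put POL2 at −1.05, a smaller fall. Its adjusted p was 0.0311 with the replicate block and 0.0223 with the trend removed, at −1.51. It was not called without 6.5% culture 2 (−1.78, adjusted p = 0.0800) or culture 3 (−1.81, adjusted p = 0.0734), after scaling to equal spread (0.0542) or with dye left out of the fit (0.223). DPB2, the second subunit of the same polymerase, was at −0.13 ± 0.33 (adjusted p = 0.816) and reversed to 0.31 with the trend removed. Both groups of DPB2 were high on cultures 2 and 3 and low on culture 1, with log2 ratios of −0.19, 1.56 and 0.71 on the 0% arrays and −0.70, 1.36 and 1.04 on the 6.5% arrays.

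RAD27, the flap endonuclease that trims the primer end of each Okazaki fragment, fell by 1.41 on the log2 scale. It read 0.12, 0.49 and 0.72 on the 0% arrays and −1.19, −0.66 and −1.06 on the 6.5% arrays. The groups did not overlap, and the dye term was small (0.21, adjusted p = 0.274). All 0% arrays lay above 0 although the pool holds their own RNA. The change of −1.41 ± 0.26, or 2.66-fold (95% interval −2.02 to −0.80, adjusted p = 0.0164), was −1.30 on the swapped pair and −1.47 on the unswapped arrays. The adjusted p was 0.0425 with the replicate block, but RAD27 was not called without 6.5% culture 2 (−1.51, adjusted p = 0.0826) or culture 3 (−1.28, adjusted p = 0.0954), after scaling to equal spread (0.0511) or with dye left out of the fit (0.0950). CDC9, the DNA ligase that seals the fragments which Rad27 has trimmed, was at −0.31 ± 0.31 (95% interval −1.04 to 0.43, adjusted p = 0.519).

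POL1, the catalytic subunit of DNA polymerase alpha, read −0.26, 1.29 and 0.76 on the 0% arrays and −1.11, −0.70 and −0.11 on the 6.5% arrays. The groups overlapped, since 0% culture 1 lay below 6.5% culture 3. The dye term was 0.50 (adjusted p = 0.0548), without a call. For POL1 too, 0% cultures 2 and 3 lay above 0 although the pool holds their own RNA, and above every 6.5% array. Its change was −1.24 ± 0.31, or 2.36-fold (95% interval −1.97 to −0.50, adjusted p = 0.0368), with −0.86 on the swapped pair and −1.43 on the unswapped arrays. The call was lost with the replicate block (0.0754), with the trend removed (−0.92, adjusted p = 0.0975), with arrays quantile normalized (0.112) or brought to equal spread (0.143), and with dye left out of the fit (0.272). It was also lost without any 1 of 0% culture 2 (0.0995), 0% culture 3 (0.0653), 6.5% culture 2 (0.158) and 6.5% culture 3 (0.114).

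The partners of Pol1 were not called. POL12, its B subunit, was at 0.64 ± 0.26 (adjusted p = 0.134), and its 95% interval 0.017 to 1.27 lay just above 0 as deposited. With the trend removed POL12 was at 0.14 (adjusted p = 0.804). PRI1, the catalytic subunit of primase, was at −0.99 ± 0.52 and scattered widely, with −0.19, 1.42 and 0.0059 on the 0% arrays and −0.74, −1.24 and 0.25 on the 6.5% arrays. PRI2, the large primase subunit, was at 0.37 ± 0.29. POL1 and POL12 thus differ in sign within 1 enzyme, although the difference between them was not tested.

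CDC21, thymidylate synthase, which makes the thymine nucleotide, read −0.36, 0.90 and 0.99 on the 0% arrays and −2.04, 0.029 and −0.14 on the 6.5% arrays. Within each dye orientation the 6.5% arrays were lower, at −1.68 on the swapped pair and −1.0 on the unswapped arrays, but the groups overlapped. In both groups the swapped array read below the other arrays, and the dye term was called (0.82, adjusted p = 0.00823). The 0% arrays of cultures 2 and 3 lay above 0 although the pool holds their own RNA. The change was −1.23 ± 0.27, or 2.34-fold (95% interval −1.86 to −0.60, adjusted p = 0.0258). The call was lost in all 6 fits without 1 array (adjusted p from 0.0534 to 0.113, changes from −1.34 to −1.0), with the replicate block (0.0598), with the trend removed (−0.83, adjusted p = 0.0748), with arrays quantile normalized (0.0648) or brought to equal spread (0.0971), and with dye left out of the fit (0.419). The other genes of thymine nucleotide supply were not called. CDC8, thymidylate kinase, was at −0.19 ± 0.28, and DUT1, the dUTPase that keeps uracil out of DNA, was at −0.50 ± 0.33 (adjusted p = 0.321). With the trend removed DUT1 was at −0.96 (adjusted p = 0.0617).

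**Figure D2:**
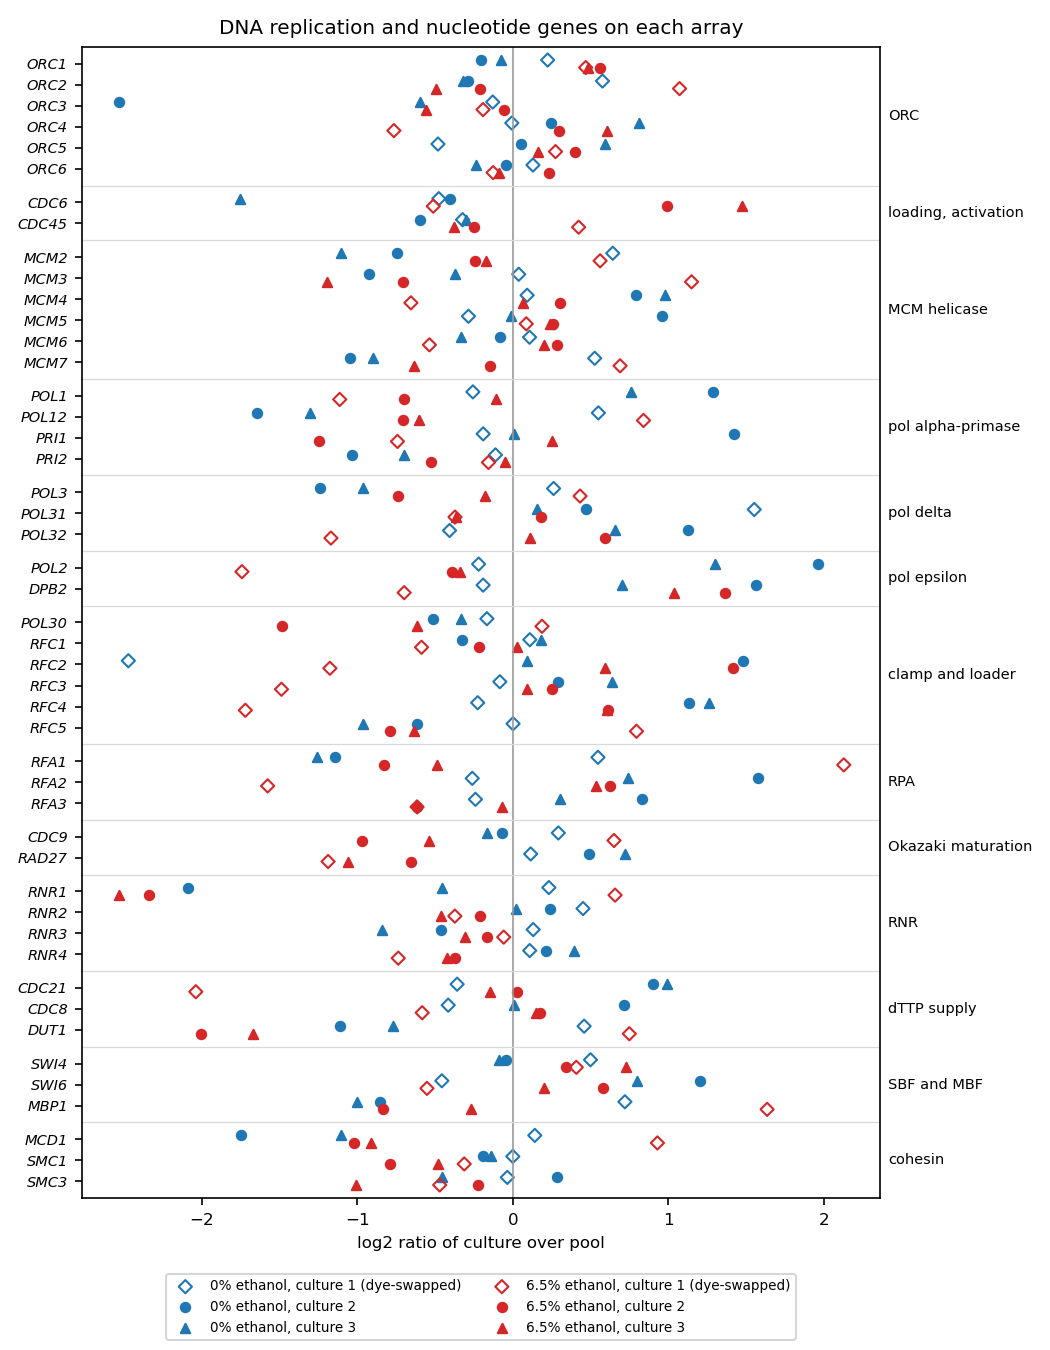
Log2 ratio of culture over pool (x axis) for each of the 47 genes (y axis, grouped by complex) on the 6 arrays, with blue for 0% and red for 6.5% ethanol, open diamonds for the dye-swapped culture 1, circles for culture 2 and triangles for culture 3. POL2, RAD27, RNR2, RNR4 and SMC1 (6.5% below) and ORC1 (6.5% above) are separated by group. In many others the diamonds lie apart from the filled symbols of the same colour.

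Of the 4 ribonucleotide reductase genes none was called, with 1 lower and 0 higher at an unadjusted p below 0.05. RNR4, a small subunit that pairs with Rnr2, read 0.11, 0.22 and 0.39 on the 0% arrays and −0.74, −0.37 and −0.42 on the 6.5% arrays. All 6.5% arrays lay below all 0% arrays, and the change was −0.75 ± 0.24 (95% interval −1.31 to −0.19, adjusted p = 0.0715). The change ranged from −0.81 to −0.70 with 1 array left out and −0.77 (adjusted p = 0.0763) with the trend removed, and was called in neither setting.

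RNR2, the small subunit that carries the tyrosyl radical, read 0.45, 0.24 and 0.023 on the 0% arrays and −0.37, −0.21 and −0.46 on the 6.5% arrays. Its groups did not overlap either, and the change was −0.59 ± 0.25 (95% interval −1.18 to 0.012, adjusted p = 0.148). RNR1, the main large subunit, read 0.23, −2.09 and −0.46 on the 0% arrays and 0.66, −2.34 and −2.53 on the 6.5% arrays. Here the swapped pair and the other arrays had opposite signs, with 0.43 on the swapped pair and −1.16 on the unswapped arrays, and the change of −0.63 ± 0.52 has a wide error (95% interval −1.86 to 0.60, adjusted p = 0.419). At 0% too, culture 2 read −2.09 against a pool that includes its own RNA.

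RNR3, the alternative large subunit that DNA damage induces strongly, read 0.13, −0.46 and −0.84 on the 0% arrays and −0.058, −0.17 and −0.31 on the 6.5% arrays. Its change of 0.21 ± 0.27 (95% interval −0.43 to 0.86, adjusted p = 0.612) did not pass the test, and the upper end of its interval is a rise of 0.86 log2 units. RNR1 and RNR3 are paralogues, as are RNR2 and RNR4, and cross-hybridisation between their probes was not tested.

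No subunit of ORC was called. ORC1, the largest subunit and an ATPase, had log2 ratios of 0.23, −0.20 and −0.076 on the 0% arrays and 0.47, 0.56 and 0.48 on the 6.5% arrays. Of the 47 only ORC1 had all 6.5% arrays above all 0% arrays (11.3% of all features), and its change was 0.52 ± 0.25 (adjusted p = 0.183). The other 5 lay between −0.31 for ORC4 and 0.82 for ORC3. On ORC3 the 0% cultures were far apart, at −0.13, −2.53 and −0.60, which gives it an SE of 0.55. ORC2, ORC5 and ORC6 were at 0.13, 0.22 and 0.056, and ORC2 and ORC4 had the opposite sign with the trend removed (−0.35 and 0.13).

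CDC6, the ATPase that loads the helicase and is made anew in each cycle, had the highest estimate of the 47. It read −0.48, −0.40 and −1.75 on the 0% arrays and −0.51, 1.0 and 1.47 on the 6.5% arrays. At 6.5% cultures 2 and 3 were high and culture 1 was near 0% cultures 1 and 2. The change was 1.53 ± 0.58 (95% interval 0.16 to 2.90) and was not called (adjusted p = 0.110), with −0.036 on the swapped pair and 2.31 on the unswapped arrays. Leaving out the array of culture 1 of either group, which leaves the unswapped arrays to set the change, gave a call at 2.31 (adjusted p = 0.0276). Without 0% culture 3, which read lowest, the change was 0.92 (adjusted p = 0.221).

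None of the 6 MCM genes was called, and a shift of the 6 together was not tested. MCM4 was lowest at −0.72 ± 0.24 (adjusted p = 0.0845) and MCM2 highest at 0.45 ± 0.29 (adjusted p = 0.301), with MCM7, MCM3, MCM6 and MCM5 at 0.44, 0.17, 0.085 and −0.024. Their spread narrowed to −0.28 (MCM4) to 0.19 (MCM5) once the trend was removed, when MCM2, MCM3 and MCM7 were slightly below 0. With the ring counted as deposited, the median was 0.13, and with the trend removed −0.039. CDC45, the helicase cofactor, read −0.32, −0.60 and −0.30 on the 0% arrays and 0.42, −0.25 and −0.37 on the 6.5% arrays. Its groups overlapped, and the change was 0.34 ± 0.27 (95% interval −0.29 to 0.97, adjusted p = 0.397).

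**Figure D3:**
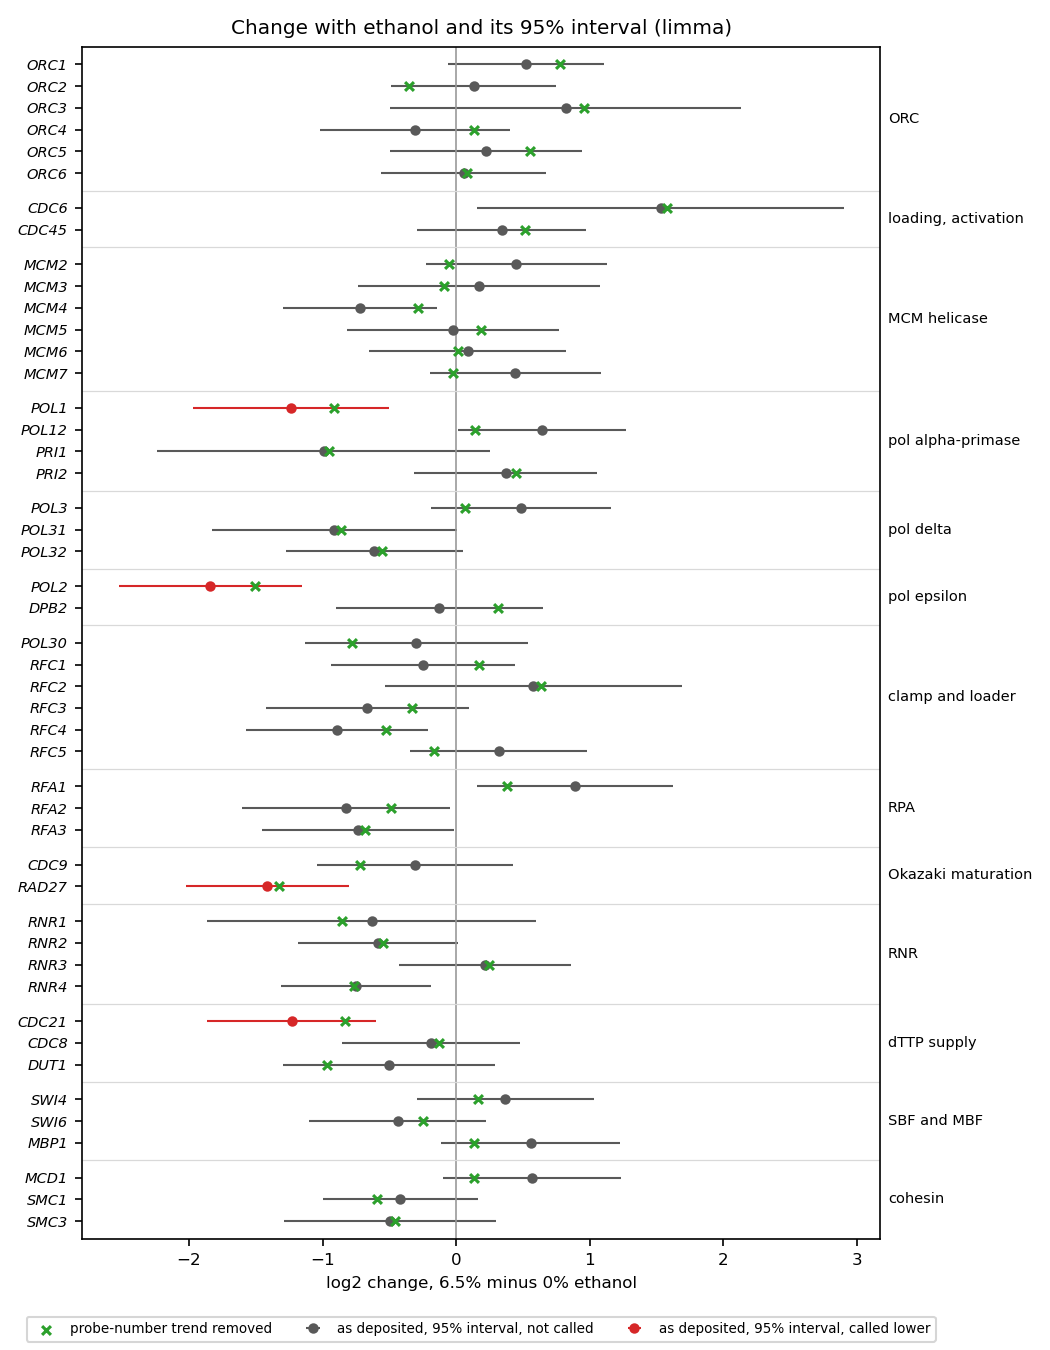
Log2 change, 6.5% minus 0% ethanol (x axis), for each of the 47 genes (y axis) with its 95% interval from limma. Red marks the 4 genes called lower, grey the 43 not called, and green crosses the change with the probe-number trend removed, at which POL1 and CDC21 are no longer called.

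DNA polymerase delta was measured through all its subunits, none of them called, with 0 higher and 0 lower at an unadjusted p below 0.05. POL3, the catalytic subunit, was at 0.49 ± 0.28 (adjusted p = 0.266), against −0.91 ± 0.39 (adjusted p = 0.144) for POL31 and −0.61 ± 0.28 (adjusted p = 0.169) for POL32. POL3 was estimated above 0 in every fit that used both groups, at 0.065 with the trend removed and 0.28 to 0.64 with 1 array left out. POL1 and POL2 fell, but the difference between the polymerases was not tested. POL31 was at −1.93 on the swapped pair and −0.40 on the unswapped arrays.

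POL30, which codes for PCNA, read −0.17, −0.51 and −0.34 on the 0% arrays and 0.19, −1.48 and −0.61 on the 6.5% arrays. Only the 6.5% arrays of cultures 2 and 3 lay below the 0% arrays, and the change was −0.30 ± 0.35 (95% interval −1.13 to 0.54, adjusted p = 0.581). The 5 clamp loader genes ranged from −0.89 ± 0.29 for RFC4 (adjusted p = 0.0739) to 0.58 ± 0.47 for RFC2 (adjusted p = 0.413), without a call. RFC1, the large subunit, was at −0.25, RFC3 at −0.66 and RFC5 at 0.32. RFC2 had the largest dye term of the 47 (1.36), reading −2.47 on 0% culture 1 and 1.48 on 0% culture 2.

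The 3 subunits of replication protein A, which coats single-stranded DNA, had estimates on both sides of 0. RFA1, the largest, was at 0.89 ± 0.31 (adjusted p = 0.0910), while RFA2 was at −0.82 ± 0.33 (adjusted p = 0.124) and RFA3 at −0.73 ± 0.30 (adjusted p = 0.136). None was called, and with the trend removed these were 0.38, −0.49 and −0.68. RFA1 read 0.55, −1.14 and −1.26 on the 0% arrays and 2.13, −0.83 and −0.49 on the 6.5% arrays. The swapped array was the highest of its group at both ethanol levels.

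Among the transcription factors of late G1, SWI4, the DNA-binding subunit of SBF, read 0.50, −0.042 and −0.090 on the 0% arrays and 0.41, 0.34 and 0.73 on the 6.5% arrays. Its change of 0.37 ± 0.28 (95% interval −0.29 to 1.03) was not called (adjusted p = 0.378). MBP1, its counterpart in MBF, was at 0.56 ± 0.28 (adjusted p = 0.209), and SWI6, the shared subunit, at −0.44 ± 0.28 (adjusted p = 0.303). Of the cohesin genes, MCD1, the kleisin that closes the ring and is cut at anaphase, read 0.14, −1.75 and −1.11 on the 0% arrays and 0.93, −1.02 and −0.91 on the 6.5% arrays. It was at 0.57 ± 0.28 (95% interval −0.095 to 1.23, adjusted p = 0.196), and at 0.14 with the trend removed. SMC1 and SMC3, the long arms of the ring, were at −0.42 ± 0.24 and −0.50 ± 0.33. All 6.5% arrays of SMC1 lay below all 0% arrays, with 0.00080, −0.19 and −0.14 on the 0% arrays and −0.31, −0.79 and −0.48 on the 6.5% arrays, yet its adjusted p was 0.266.

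Counted over all 47, the groups did not overlap with the 6.5% arrays below for 5 genes, POL2, RAD27, RNR2, RNR4 and SMC1 (10.6%, against 14% of all features). The swapped pair and the unswapped arrays had the same sign for 30 of the 47 (63.8%, against 66.6% of all features). Of these, 20 were below 0 (42.6% of the 47, against 33.6% of all features) and 10 above (21.3% against 33%). Across the 47 genes the changes within the orientations correlated at r = 0.45, and across all features at 0.42. These are correlations across genes, which share the arrays and are not independent replicates. The 4 called genes were at −0.86 or lower in both orientations. ORC2, ORC5, MCM3, MCM5, POL30, CDC9, RNR1 and DUT1 were above 0 on the swapped pair and below 0 on the others, and the remaining genes of unlike sign the reverse.

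**Figure D4:**
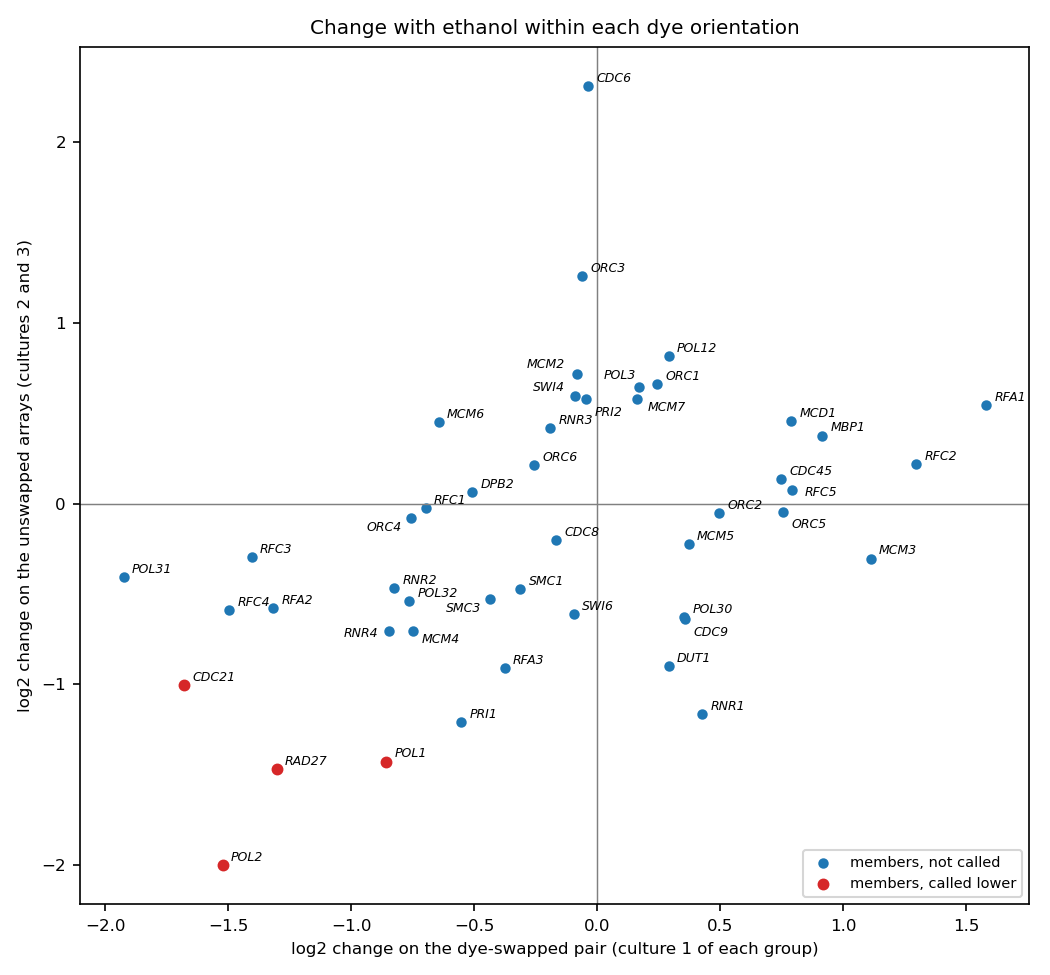
Log2 change on the dye-swapped pair, 6.5% culture 1 minus 0% culture 1 (x axis), against that on the unswapped arrays, the mean of 6.5% cultures 2 and 3 minus that of 0% cultures 2 and 3 (y axis), for the 47 genes. The 4 called genes (red) lie at the lower left, at −0.86 or lower on both axes, and CDC6 lies at 2.31 on the unswapped arrays and near 0 on the swapped pair.

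The change as deposited declined along the probe number, at r = −0.44 across the 47 and −0.30 across all features, as a description. With the trend removed both were near 0 (0.020 and 0.032). The removal moved single genes by up to 0.44 upwards and 0.51 downwards. It turned the sign of 9 of the 47 (19.1%, against 13.2% of all features), none of them called. In the R64 gene table there are 2 pairs of neighbours among the 47. POL2 fell, while its neighbour ORC5 was at 0.22, and RFC5 and POL30 were at 0.32 and −0.30. The difference within a pair was not tested.

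Other genes of the same processes were followed through lists drawn up from general knowledge. Of 30 further factors of replication forks and initiation, 1 rose and 1 fell (7.69% and 10.4% of all features), with a median of −0.097. SLD3, which brings Cdc45 to the helicase, rose, at 1.14 ± 0.30 (adjusted p = 0.0422), and CTF4, which ties polymerase alpha to the helicase, fell, at −1.56 ± 0.40 (adjusted p = 0.0405). Neither was called with the trend removed (0.0614 and 0.0892), with the replicate block (0.0843 and 0.0593) or in any fit without 1 array other than that without 0% culture 3 (adjusted p up to 0.17 for SLD3 and 0.128 for CTF4). Of 16 genes of the checkpoint and of ribonucleotide reductase control limma called none (2 higher and 0 lower at an unadjusted p below 0.05). In this list DUN1, the kinase that relieves inhibition of the reductase, was at 1.14 ± 0.40 (adjusted p = 0.0938) and HUG1, a damage-induced inhibitor of the reductase, at 0.72 ± 0.45 (adjusted p = 0.299). With the trend removed they were at 0.72 (adjusted p = 0.315) and 0.97 (0.175). HUG1 read −0.93 on 6.5% culture 1 but 1.61 and 1.56 on 6.5% cultures 2 and 3. Of the 16 estimates 11 lay above 0 and 5 below, the lowest RAD17 at −0.66, with a median of 0.23. None of 9 further cohesion and separation factors was called, with 1 higher and 0 lower at an unadjusted p below 0.05.

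Lists of genes from other cell cycle phases give a setting for these values. Beside their counts stand 10.4% of all features called lower and 7.69% called higher. Of 19 measured late G1 genes outside the 47, 2 fell and 0 rose, CLN2 and SVS1, a cell wall protein gene (−3.33 ± 0.36, adjusted p = 0.00633), with a median of 0.057. The G1 cyclin gene CLN2 read 0.49, 1.71 and 0.91 on the 0% arrays and −1.71, −0.90 and −1.43 on the 6.5% arrays. All 6.5% arrays lay below all 0% arrays. CLN2 fell, at −2.38 ± 0.32 (adjusted p = 0.00857), and was not called without 6.5% culture 2 (0.0594) or 6.5% culture 3 (0.0564). Of 8 core histone genes, made in S phase, 3 fell and 0 rose, with a median of −0.79. They were HHF2 (−1.17), HHF1 (−1.15) and HTA2 (−0.95), set against 10.4% of all features called lower. None of the 3 was called after quantile normalization (adjusted p from 0.181 to 0.322), at equal spread (0.232 to 0.340) or with the replicate block (0.0676 to 0.0947). Of the 6 fits without 1 array, HHF2 was called in 3, HTA2 in 2 and HHF1 in 0. The fits without 0% culture 1 and without 6.5% culture 1 gave identical values, and both are among the calls of HHF2 and HTA2. With the trend removed 4 histone genes were called lower, HHF1, HTA2, HHT1 and HTB2, and HHF2 was not (0.0935). The removal moved HHF1 and HTA2 down to −1.64 and −1.46, and HHF2 up to −0.86. Of the 8 histone genes 7 were estimated below 0 as deposited. HHT2 was above, at 0.20, and at 0.52 with the trend removed. HHF1 and HHF2 code for the same histone H4, and their probes may not tell the genes apart. The list of G2/M genes had 2 of 11 lower and 0 higher, the mitotic cyclin genes CLB1 (−1.62) and CLB2 (−1.09). In that of M/G1 and early G1 genes 3 of 13 were lower, CTS1 (−1.94), a chitinase of cell separation, FAR1 (−1.41), a cyclin-dependent kinase inhibitor of the mating response, and DSE2 (−1.12), a daughter cell wall protein. RME1, a repressor of meiosis, was higher (1.09). As markers of the labelled mating type, 4 of 6 a-cell genes fell (median −1.79), with BAR1, the protease that degrades alpha-factor, at −3.27, STE2, the receptor of alpha-factor, at −3.07, and MFA1, a gene of the a-factor pheromone, at −2.53. MFA2 fell less, at −1.06. AGA2 and ASG7 were not called, at −0.13 (adjusted p = 0.795) and −0.19 (adjusted p = 0.648). By limma none of 4 alpha-cell genes was called (1 higher and 0 lower at an unadjusted p below 0.05). Their median was 0.75, with 3 estimates above 0 and 1 below. Without a level, presence of either type could not be checked. Over all the lists outside the 47, 17 of 116 measured genes were called, against 18.1% of all features. The count was 0 without 6.5% culture 2, 3 without 6.5% culture 3, 9 without 0% culture 2 and 12 without 0% culture 3. It was 8 with the replicate block and 13 with the trend removed. The 8 were SVS1, CLN2, CLB1, CTS1, FAR1, BAR1, STE2 and MFA1. With the trend removed 11 of the 17 were called, and 2 others, HHT1 and HTB2. The 6 lost were SLD3, CTF4, HHF2, CLB2, RME1 and MFA2. Whether the position of the cells in the cycle had a part in the values of the 47 genes was not tested.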

How the data were processed

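The deposited table holds log2 ratios, which the authors made from 2-colour arrays, for 6368 probes on 6 arrays (3 per group). The number of arrays limits the precision, and signal over background was not used here. The scanner, background correction and normalization, and which dye is over which, are not stated in the sources used here. The scale is taken from the values, which are bounded at 6.64 on both sides (a ratio of 100); no value of the 47 genes lay at that limit. Per the labels, the pool was red (AlexaFluor 647) on the array of culture 1 of each group, and these arrays were multiplied by −1.

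Probes were named through the platform annotation and the RefSeq gene table (R64). Of the probes 5673 had 1 gene, 0 several and 695 none. Probes of 1 gene were averaged (23 genes, none of the 47), giving 6345 features. limma 3.58.1 in R 4.3.3 (lmFit, eBayes) was fitted on all 6 arrays with group and dye orientation (3 residual degrees of freedom), two-sided, with Benjamini-Hochberg adjustment across the 6345 features, after the procedure was tested on simulated data. Alternatives are named in the closing section; the trend was a loess curve (span 0.3) of each array along the probe number. Replicate numbers are shared between groups: deviations from the group mean of same-numbered arrays correlated at 0.70, 0.48 and 0.43, and those of 0% culture 2 and 6.5% culture 3 at 0.51. The labels say that the cultures were separate and give the numbers no other shared origin than the swapped dyes of number 1.

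The 47 genes, the other lists (116 of 119 names measured) and the tests were chosen with earlier results of these data known. All 47 could be named. Called members are given with every array, as are RNR1 to RNR4, POL30, CDC6, CDC45, MCD1 and SWI4 whatever their values. From each other list up to 3 called genes with the largest change are named, of which CLN2 alone is given with every array. ORC1, ORC3, PRI1, DPB2, RFA1, SMC1, DUN1, HUG1, RAD17, RME1, MFA2, AGA2, ASG7, HHT1, HHT2 and HTB2 were chosen for their values after these were seen. Promoter motifs and probe sequences were not analysed here.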

Additional observations from a re-analysis of the deposited data

How the results depend on the processing

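Across the alternatives no called gene of the 47 changed sign, but the number of calls moved. As deposited 1150 features were called, with 0 of the 47 higher and 4 lower. Features called numbered 607 with the replicate block in place of the dye term, 78 with dye left out of the fit, 307 after scaling to equal spread, 484 after quantile normalization, 2542 for the 6.5% arrays against the pool alone and 2 to 1253 with 1 array left out. Of the 47, the calls lower were 2 with the replicate block, 2 with the probe-number trend removed, 2 after quantile normalization, 0 with dye left out of the fit and 0 after scaling to equal spread (limma, with 4 and 8 lower at an unadjusted p below 0.05). Against the pool alone, 1 residual degree of freedom is left and 0% arrays play no part. There 10 of the 47 were called lower and 2 higher, beside 2542 of all 6345 features called in either direction. POL2, RAD27, POL1 and CDC21 were at −1.05, −1.02, −0.76 and −1.05 there. These are smaller falls than the −1.84, −1.41, −1.24 and −1.23 of 6.5% minus 0% ethanol. By direction, the shares of all features were not counted for this setting or for quantile normalization. Shares at an unadjusted p below 0.05 were not counted with dye left out of the fit or after scaling to equal spread. With 1 array left out 0 to 3 were called lower and 0 to 1 higher. The median change of the 47 was −0.12 after quantile normalization and −0.20 to 0.017 with 1 array left out, the highest without 0% culture 2. Centring on the median, robust eBayes, probes kept apart and values at the limit treated as missing kept all 47 on the same side of the threshold and in the same direction.

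Of the 47, 20 genes changed sign in at least 1 setting, none of them called as deposited or in that setting. With the trend removed these were ORC2 at −0.35, ORC4 at 0.13, MCM2 at −0.052, MCM3 at −0.091, MCM5 at 0.19, MCM7 at −0.026, DPB2 at 0.31, RFC1 at 0.17 and RFC5 at −0.16. After scaling to equal spread they were ORC2 at −0.16, MCM5 at 0.10 and CDC8 at 0.049, and after quantile normalization ORC2 at −0.12, MCM5 at 0.11 and CDC8 at 0.059. Against the pool alone they were ORC3 at −0.25, ORC6 at −0.026, MCM5 at 0.17, MCM6 at −0.15, PRI2 at −0.22, POL3 at −0.012, DPB2 at 0.25, RFC2 at −0.085, RNR3 at −0.15 and MCD1 at −0.018. With 1 array left out the change crossed 0 for ORC2 from −0.050 to 0.27, ORC5 from −0.044 to 0.45, ORC6 from −0.079 to 0.21, MCM3 from −0.30 to 0.46, MCM5 from −0.24 to 0.31, MCM6 from −0.091 to 0.45, DPB2 from −0.43 to 0.066, POL30 from −0.63 to 0.042 and CDC8 from −0.39 to 0.017. The cause of these differences was not tested.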
